A study of Mus musculus with 8 samples.

Results

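The response of DRG2-depleted B16F10 melanoma cells to interferon-gamma (IFN-γ) was measured by RNA sequencing in 4 of the 8 libraries of the study. B16F10 is a mouse melanoma cell line that forms pigment. The depleted line carried shDRG2, a hairpin construct against Drg2, which encodes a developmentally regulated GTP-binding protein. Its 2 libraries with IFN-γ (recombinant mouse protein, 5 ng/ml, 24 hours) were compared with its 2 libraries without it, across 13500 genes that passed a filter on low counts, of 45556 named genes. The other 4 libraries came from the same cell line with the vector pLKO, again 2 with the same IFN-γ treatment and 2 without. Each line is 1 construct in 1 cell line, the hairpin sequence is not given in the sources used here, and the labels do not say that the 2 libraries of a group came from separate cultures. The p-values therefore measure the spread between these libraries, which may be technical.

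IFN-γ is the cytokine that activated T cells and natural killer cells send to the cells around them. Its receptor, built from Ifngr1 and Ifngr2, activates the kinases Jak1 and Jak2. Signalling from these kinases reaches gamma-activated sites (GAS) in promoters and switches on factors such as Irf1, and Irf1 and complexes that contain Irf9 then act through interferon-stimulated response elements (ISRE). In tumour cells the programme is known for antigen presentation, for chemokines that attract T cells, for growth arrest and for PD-L1, the checkpoint ligand encoded by Cd274.

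Levels are in CPM, the usual depth-scaled count unit, here with library sizes adjusted by TMM factors, with the 2 libraries of a group in replicate order. A change is the log2 fold change of IFN-γ over none, with 2 libraries per group. Its standard error (SE) was worked back from the F statistic of the fit to all 8 libraries. For genes with few counts without IFN-γ this SE can be smaller than the counting error, so it understates their uncertainty. A gene rose or fell where its Benjamini-Hochberg adjusted p from the edgeR quasi-likelihood F test over the 13500 genes was under 0.05. A gene nearly silent without IFN-γ could pass the filter only through the IFN-γ libraries, so that its rise was close to fixed in advance. Counts and medians of the gene lists include such genes.

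Drg2 itself was at 8.68 and 9.34 CPM without and 6.46 and 7.66 CPM with IFN-γ in the shDRG2 libraries, against 64.3 to 76.3 CPM over the 4 pLKO libraries. No shDRG2 library overlapped a pLKO library in Drg2. Its own change with IFN-γ was -0.34 (SE 0.124), which did not pass the edgeR test (adjusted p = 0.0589). Drg2 did pass with upper-quartile scaling (-0.38, adjusted p = 0.0377), with library size only (-0.37, 0.0451), without the filter (-0.33, 0.0439) and with a replicate block (-0.34, 0.0435), and each time lay in the same direction. None of the 4 tested DRG genes and partners (Drg1, Drg2, Zc3h15, Rwdd1) passed the test as first fitted.

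Cd274 stood at 9.64 and 10.4 CPM without IFN-γ and at 298 and 293 CPM with it, a change of 4.89 (SE 0.118, adjusted p = 5.04e-10 by the edgeR test). The libraries of each state lay close together and the states were far apart. Across all genes 2182 rose (16.2% of those tested) and 2051 fell (15.2%). Counts of called genes in the lists below are to be read against these shares. The order of these counts turned with the scaling, with 1950 rises and 2416 falls under upper-quartile scaling and 2005 and 2267 with library size only. The sizes differed more: 485 genes rose and 133 fell by at least 4-fold, and 201 rose and 6 fell by at least 32-fold. The median change over all genes tested was 0.00. Leaving out the first IFN-γ library of the shDRG2 line lowered the total from 4233 to 2720 called genes.

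**Figure D1:**
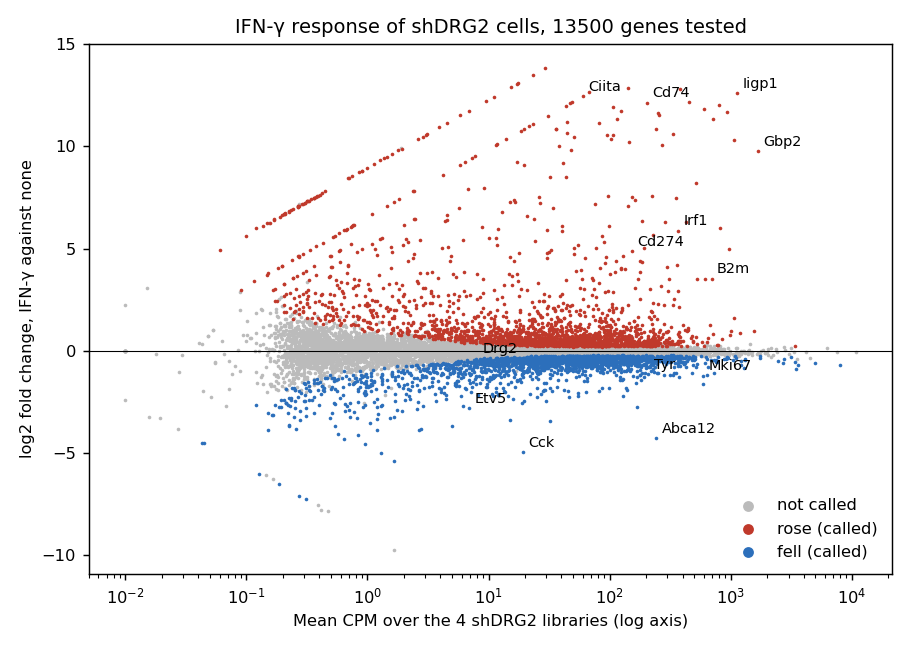
Change after IFN-γ in shDRG2 cells (log2 fold change, vertical axis) against the mean level over the 4 shDRG2 libraries (CPM, log axis) for the 13500 genes tested, with 2182 rises in red, 2051 falls in blue and genes that were not called in grey. Rises reach a log2 change of 13.83 while Cck and Abca12, the largest falls among genes averaging 5 CPM or more, sit at -4.95 and -4.27; the straight diagonal streaks at the top left are genes with 0 or a few counts without IFN-γ, whose fitted change depends on the small count added by the model.

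Promoter sequences of 5 rising genes are shown because they carry the letters of the elements named above. Irf1 and Cd274 were chosen by name and the other 3 for holding a match among the 12 largest rises given further on; of those 12 genes 5 had a window, and Mpeg1 and H2-Eb1 among the 5 held neither motif. They are the RefSeq windows of the GRCm38.p6 build, 250 bases before to 50 bases after the annotated start, written 5′ to 3′ on the strand of the gene. Capitals mark a match to GAS (TTCNNNGAA, the same on both strands) or to the ISRE core (GAAANNGAA, or its reverse complement where the match lies on the other strand). Irf1 lies at chr11:53769764-53770063 (plus strand) and has 1 GAS match. Cd274 lies at chr19:29367188-29367487 (plus strand) with 1 ISRE core match on the other strand. Slamf8, a receptor of the SLAM family, lies at chr1:172590519-172590818 (minus strand) with 1 ISRE core match. Tgtp1, a GTPase of the immunity-related family, lies at chr11:48992197-48992496 (minus strand) with a GAS and an ISRE core match that do not overlap. Casp12, an inflammatory caspase, lies at chr9:5345226-5345525 (plus strand) with 2 GAS matches of the same letters.
Irf1: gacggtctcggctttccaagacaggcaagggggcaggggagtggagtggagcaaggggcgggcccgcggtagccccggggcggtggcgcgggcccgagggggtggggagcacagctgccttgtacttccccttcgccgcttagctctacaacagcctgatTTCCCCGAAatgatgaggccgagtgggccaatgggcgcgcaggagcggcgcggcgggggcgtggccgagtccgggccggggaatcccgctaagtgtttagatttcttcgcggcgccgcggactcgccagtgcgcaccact
Cd274: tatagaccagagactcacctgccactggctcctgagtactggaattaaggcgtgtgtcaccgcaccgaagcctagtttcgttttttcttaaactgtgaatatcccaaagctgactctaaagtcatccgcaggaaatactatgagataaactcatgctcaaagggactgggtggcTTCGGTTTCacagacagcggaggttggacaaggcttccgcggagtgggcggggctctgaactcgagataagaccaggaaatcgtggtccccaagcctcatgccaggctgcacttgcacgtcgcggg
Slamf8: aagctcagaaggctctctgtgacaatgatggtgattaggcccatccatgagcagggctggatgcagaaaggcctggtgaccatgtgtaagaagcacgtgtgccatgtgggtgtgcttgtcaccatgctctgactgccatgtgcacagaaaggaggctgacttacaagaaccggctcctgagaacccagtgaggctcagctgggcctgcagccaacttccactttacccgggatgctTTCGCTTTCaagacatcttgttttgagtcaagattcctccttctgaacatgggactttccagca
Tgtp1: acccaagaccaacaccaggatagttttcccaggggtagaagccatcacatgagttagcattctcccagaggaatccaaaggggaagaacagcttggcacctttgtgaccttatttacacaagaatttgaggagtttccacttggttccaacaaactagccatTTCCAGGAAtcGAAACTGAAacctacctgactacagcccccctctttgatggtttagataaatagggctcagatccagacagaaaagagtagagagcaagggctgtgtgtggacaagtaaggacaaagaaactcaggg
Casp12: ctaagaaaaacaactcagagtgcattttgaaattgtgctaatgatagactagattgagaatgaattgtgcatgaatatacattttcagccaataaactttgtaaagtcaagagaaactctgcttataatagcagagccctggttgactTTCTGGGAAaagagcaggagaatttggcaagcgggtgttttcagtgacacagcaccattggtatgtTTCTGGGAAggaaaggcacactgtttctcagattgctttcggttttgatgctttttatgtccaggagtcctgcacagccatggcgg

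The GAS match of Irf1 starts at position -90 from the annotated start and reads TTCCCCGAA. In Cd274 the ISRE core match starts at -76, and in Slamf8 at -14. In Tgtp1 the GAS match starts at -88 and the ISRE core match at -77, so that the pair sits side by side. The Casp12 matches start at -102 and -36, both reading TTCTGGGAA. Over all rises of at least 4-fold, 331 of 485 genes had 423 windows in the RefSeq table, and 25.1% of these windows held an ISRE core match and 13.7% a GAS match. Among all genes tested the shares were 7.06% and 6.89%, and among all promoters in RefSeq's list they were 8.56% and 8.30%. Genes that rose by less than 2-fold held them in 8.15% and 7.35% of windows. Genes that fell by at least 2-fold held the ISRE core in 7.16% and GAS in 3.82%, a GAS share below that of all genes tested. These differences in shares were not tested. A match is a run of letters and no measured binding. Most windows of the strongly rising genes held neither motif within these 300 bases.

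**Figure D2:**
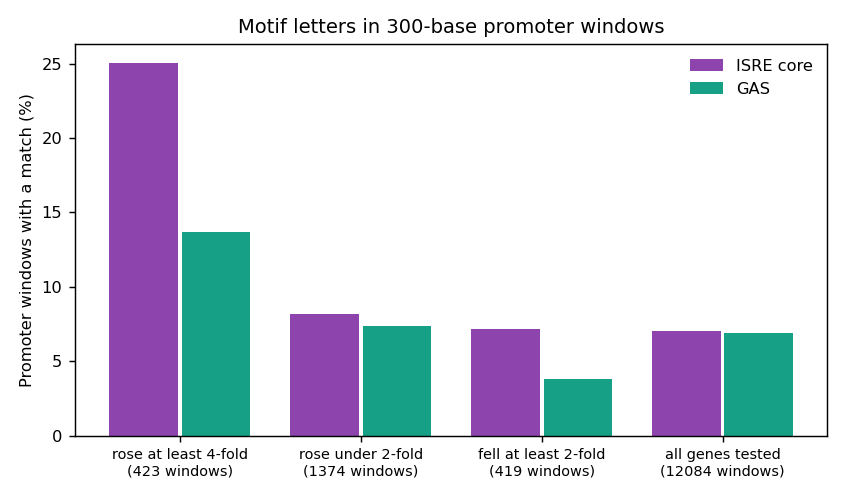
Share of promoter windows (%, axis from 0) that hold an ISRE core match (purple) or a GAS match (green) in 4 sets of genes, with the number of windows in brackets. The bars for genes that rose at least 4-fold reach 25.1% and 13.7%, and those of the 12084 windows of all genes tested 7.06% and 6.89%.

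In the signalling chain, 7 of 13 tested genes of the receptor and JAK-STAT list rose and 3 fell, with a median change of 0.35. Stat2, a partner of Irf9, went from 16.6 and 14.9 to 253 and 250 CPM (3.99, SE 0.148), and Stat3, which many cytokine receptors activate, from 76.1 and 73.0 to 413 and 353 CPM (2.36, SE 0.103). The rises were much smaller upstream. Jak2 rose by 0.89 (SE 0.0799) and Jak1 by 0.42 (SE 0.0749), and Ifngr2, the signalling chain of the receptor, fell from 58.5 and 54.9 to 40.1 and 39.1 CPM (-0.52, SE 0.0896). Of the receptor for type I interferon, Ifnar2 rose by 1.08 (SE 0.0838) and Ifnar1 fell by 0.35.

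Of 17 interferon regulatory factors and partners, 9 rose and 1 fell. Irf1, the primary target that drives many of the later genes, went from 13.4 and 11.4 to 731 and 724 CPM (5.87, SE 0.151). Irf8 and Batf2, best known from myeloid cells, had 3 counts each over both unstimulated libraries and 14221 and 5917 counts with IFN-γ. Their count ratios were 4127 (95% counting interval 1412 to 20020) and 1717 (587 to 8329). Irf9, a DNA-binding partner of Stat2, rose by 2.01 (SE 0.156), while Irf2bpl, a gene of the IRF2-binding protein family, fell by 0.66 (SE 0.124).

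The brakes of the pathway moved unevenly, with 4 of 17 feedback inhibitors rising, 3 falling and a median of 0.00. Over all genes tested the shares were 16.2% rising and 15.2% falling, so the 3 falls were near the all-gene share. Without either IFN-γ or the second unstimulated shDRG2 library only 1 of the falls was called. Socs1, which blocks the JAK kinases, went from 0.467 and 0.620 to 64.8 and 69.7 CPM (6.96, SE 0.171). Usp18, which restrains type I interferon signalling, rose by 4.53 (SE 0.208) and Socs3, the inhibitor induced by Stat3, by 2.70 (SE 0.133). Socs2, which acts on growth hormone signalling, fell from 6.10 and 7.83 to 1.43 and 1.83 CPM (-2.08, SE 0.264). The abundant phosphatases Ptpn1 and Ptpn11 did not pass the test (0.15 and -0.09).

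The guanylate-binding proteins and immunity-related GTPases, which attack vacuoles of intracellular pathogens, were the list with the highest median. Of 21 tested members 20 rose and none fell, with a median change of 10.86, or 10.77 with Gvin1 at its lower bound. Several members, among them Gbp5, Gbp10 and Gvin1, passed the filter through the IFN-γ libraries. At mean levels of 0 to 0.093 CPM without IFN-γ, a rise of these genes was close to fixed in advance, and the count and median include them. Gbp2 went from 4.14 and 3.53 to 3461 and 3185 CPM, Igtp from 2.24 and 0.969 to 2286 and 1992 CPM, and Iigp1 from 0.373 and 0.349 to 2183 and 2327 CPM (12.59, SE 0.190). Gvin1, a very large inducible GTPase, had 0 counts in both unstimulated libraries and 51.2 and 42.4 CPM with IFN-γ, at least 896.5-fold higher when the group is set to a floor of 3 counts. Per kilobase of annotated exon, Gbp2 moved from rank 9371 to rank 6 and Igtp from rank 10192 to rank 13 among 12787 genes with a length. The only member that was not called was Irgq (0.05), an atypical member of the family. Tgtp1 and Tgtp2 are near-identical copies, as are several Gbp genes, and reads could be split between them.

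**Figure D3:**
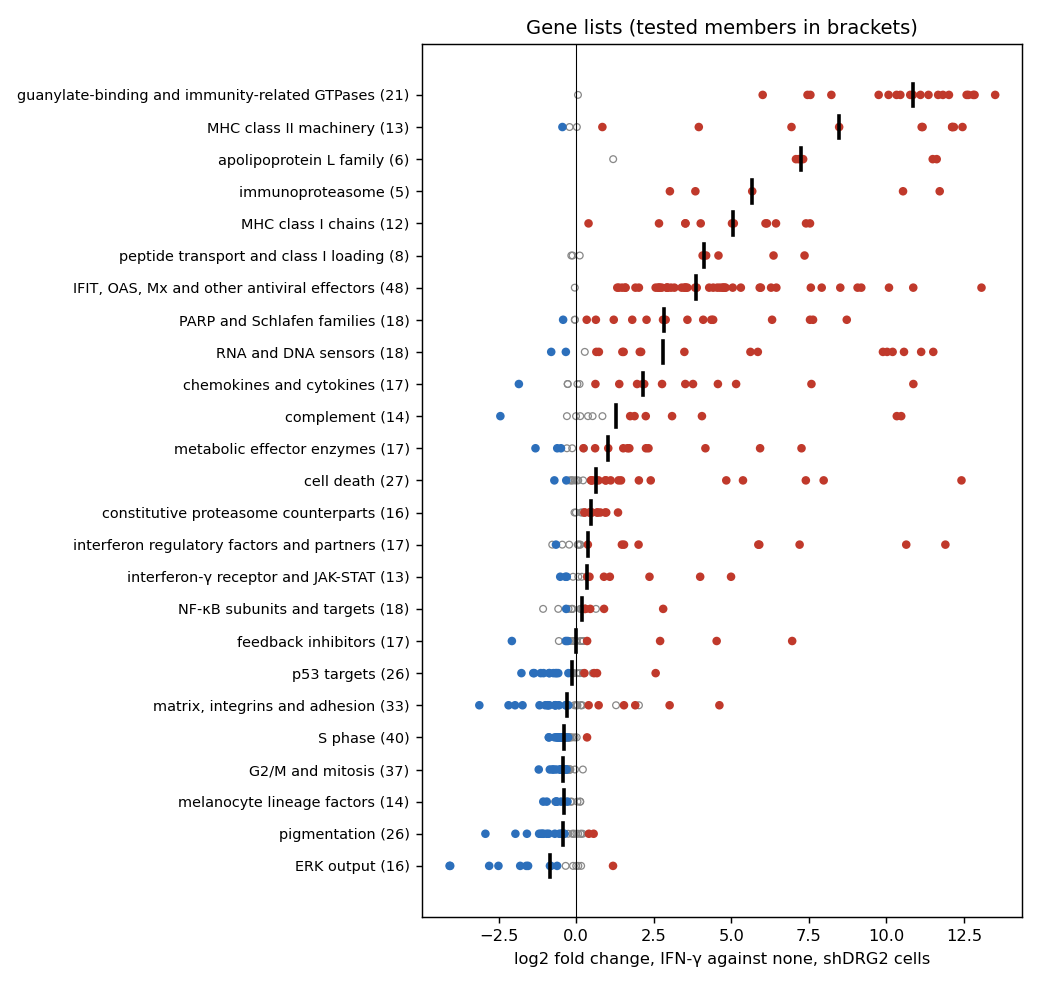
Change after IFN-γ in shDRG2 cells (log2 fold change, horizontal axis) of every tested gene in 25 lists, with the number of tested genes in brackets. Red points rose, blue points fell, open points were not called and black bars are list medians, which run from 10.86 for the GTPases to -0.84 for ERK output.

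Genes of antigen presentation through MHC class I rose together: all 12 tested class I genes rose, with a median of 5.05. Another 8 class I genes were too low to test. H2-Q4, H2-T24, H2-T10 and H2-M3, at mean levels of 0.016 to 0.089 CPM without IFN-γ, passed the filter through the IFN-γ libraries. For these a rise was close to fixed in advance. B2m, the light chain of every class I molecule, went from 121 and 101 to 1291 and 1266 CPM (3.52, SE 0.110), H2-K1 from 13.3 and 9.49 to 371 and 375 CPM (5.02, SE 0.227), and H2-D1 from 53.2 and 46.2 to 565 and 574 CPM (3.52, SE 0.118). The class I transactivator Nlrc5 rose by 6.10 (SE 0.130) and the non-classical gene H2-T23 by 7.54 (SE 0.168). Class I heavy chain genes are near-identical in places, so single H2 values are uncertain. Among 8 genes of peptide transport and loading 5 rose. The peptide transporter subunits Tap1 and Tap2 rose by 6.36 and 7.36, tapasin (Tapbp) by 4.19, its relative Tapbpl by 4.58, and the trimming peptidase Erap1 by 4.07. The general chaperones Calr, Canx and Pdia3 were at 716 to 1771 CPM in the 4 libraries and did not pass the test (-0.16, -0.12 and 0.11).

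All 5 genes of the immunoproteasome, the form of the proteasome that favours peptides for class I, rose. The catalytic subunits Psmb8 and Psmb9 went from at most 0.155 CPM to 254 and 239 CPM and to 217 and 205 CPM. Psmb10, the remaining catalytic subunit, was already at 8.33 and 9.15 CPM and rose to 465 and 426 CPM (5.67, SE 0.122). The activator subunits Psme1 and Psme2 rose by 3.02 and 3.84. Of 16 genes of the constitutive core and other activators, 12 rose by smaller amounts (median 0.46) and none fell. The largest of these were Psma5 (1.34, SE 0.0712), Psma2 (0.96) and Psmb2 (0.93), while the alternative activators Psme3 and Psme4 were at -0.01 and -0.06 and were not called.

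Genes of MHC class II presentation, usually a property of professional antigen-presenting cells, started from almost nothing. Of 13 tested 10 rose and 1 fell (median 8.48, or 7.44 with the genes that rose from 0 counts at their lower bounds). Another 3 were too low to test. Several of the rising genes, among them Ciita, H2-Ab1, H2-Eb1, H2-Aa, Cd74 and Ctss, passed the filter through the IFN-γ libraries. At mean levels of 0 to 0.097 CPM without IFN-γ, a rise of these genes was close to fixed in advance, and the count and median include them. Ciita, the master regulator of class II, had 1 count over both unstimulated libraries and 120 and 119 CPM with IFN-γ, a count ratio of 6922 (95% counting interval 1242 to 273400). The chains H2-Ab1, H2-Eb1 and H2-Aa had 1, 1 and 2 counts without IFN-γ and between 82.6 and 108 CPM with it. Cd74, the invariant chain, went from 0 and 0.194 to 413 and 396 CPM (12.13, SE 0.428). Ctss, the protease that cuts the invariant chain, had 0 counts and then 9.63 and 8.48 CPM, at least 173.8-fold higher. The gene that fell was Ifi30, a thiol reductase of the lysosome, from 25.8 and 20.3 to 16.7 and 17.1 CPM (-0.45, SE 0.119). The call on Ifi30 was lost without the first unstimulated shDRG2 library (-0.26, adjusted p = 0.144 by the edgeR test) and without either IFN-γ library (-0.43 and -0.46, adjusted p = 0.0861 and 0.0642).

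Because many class II and GTPase genes are also expressed by immune cells, markers of other cell types were read in the same libraries. The summed level of 19 immune markers was 1.34 and 1.05 CPM without and 2.33 and 1.81 CPM with IFN-γ, and 13 or 14 of the 19 were at 0 in each library. Cd3e, Itgam, Adgre1 and Tyrobp had 0 counts over all 8 libraries and Ptprc, the pan-leukocyte marker, had 1. Of the 3 immune markers that could be tested, 1 rose and none fell, with a median change of 0.95. That rise was not called by DESeq2. Melanocyte markers summed to 15240 and 14120 CPM without and 9725 and 10230 CPM with IFN-γ. Fibroblast markers summed to 8.59 to 11.1 CPM and epithelial markers to at most 0.653 CPM. Endothelial markers summed to 6.002 and 5.038 CPM without and 0.700 and 0.520 CPM with IFN-γ, nearly all of it Vwf (-3.88, SE 0.349), while Cdh5 and Kdr had 0 counts.

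**Figure D4:**
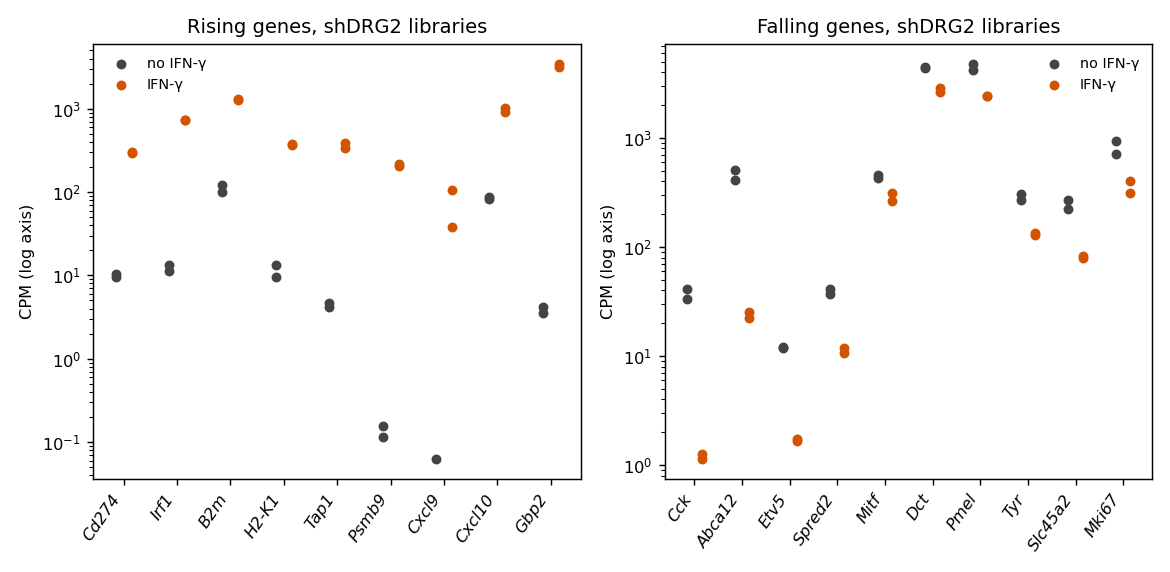
Level of 9 rising and 10 falling genes in each of the 4 shDRG2 libraries (CPM, log axis), grey without and orange with IFN-γ, 1 point per library. For each gene shown the 2 states do not overlap; the second unstimulated library of Cxcl9 had 0 counts and has no point.

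Of 17 tested chemokines and cytokines 12 rose and 1 fell, and 22 of 39 listed genes were too low to test. Cxcl10, which attracts T cells through Cxcr3, was already at 82.0 and 87.6 CPM and reached 1017 and 921 CPM (3.51, SE 0.0947). Cxcl9, a ligand of the same receptor, had 2 counts without IFN-γ and 106 and 38.1 CPM with it, a ratio of 1997 (95% counting interval 553 to 16500). The 2 stimulated libraries differed widely for Cxcl9. Il18bp, the decoy that binds interleukin 18, rose by 4.57 (SE 0.154), the interleukin 15 receptor gene Il15ra by 3.76 (SE 0.224) and the macrophage growth factor Csf1 by 2.19 (SE 0.112). Tgfb1, a suppressive cytokine, fell from 7.43 and 5.12 to 1.999 and 1.504 CPM (-1.85, SE 0.248).

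Among 14 tested checkpoint and immune ligands 4 rose and 2 fell, with a median of -0.01. The falls, Ceacam1 (-2.65) and Ulbp1 (-0.90), were both lost without the first IFN-γ shDRG2 library (adjusted p = 0.179 and 0.0513 by the edgeR test) and without the first unstimulated one (0.185 and 0.0684), and 1 remained without the second unstimulated one. Cd47, the signal that holds off macrophages, rose from 39.6 and 38.4 to 183 and 159 CPM (2.13, SE 0.112), Tnfrsf14, a ligand of the inhibitory receptor BTLA, by 3.79 (SE 0.287) and galectin-9 (Lgals9) by 0.97 (SE 0.123). Of 26 tested genes known for PD-L1 trafficking and turnover, 5 rose and 5 fell (median -0.04), with 3 falls without the first IFN-γ or the first unstimulated shDRG2 library. Over all genes tested 16.2% rose and 15.2% fell, so the 5 rises and 5 falls were near the all-gene shares. Cmtm6, which keeps PD-L1 at the cell surface, rose from 34.2 and 27.7 to 56.1 and 51.0 CPM (0.79, SE 0.107). The glycosyltransferase B3gnt3 rose by 1.78 (SE 0.166). Hip1r, which sends PD-L1 to the lysosome, fell from 43.1 and 43.0 to 26.95 and 25.03 CPM (-0.73, SE 0.0814).

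Antiviral effectors rose almost without exception, 47 of 48 tested, with a median of 3.85. Ifit3, a gene of the IFIT family, went from 12.8 and 8.72 to 947 and 745 CPM (6.28, SE 0.192) and Ifit2 from 86.7 and 83.0 to 744 and 544 CPM (2.92, SE 0.198). Sp110, a nuclear body protein, rose by 9.19 (SE 0.212). The exception was Ifitm2, at -0.05. Of 18 nucleic acid sensors and adaptors 15 rose, led by Zbp1, a sensor of Z-form nucleic acid, from 0.218 and 0.116 to 552 and 479 CPM (11.51, SE 0.188), and by the DNA-sensor family genes Ifi203, Ifi204 and Mnda (11.12, 10.20 and 10.57). Tlr4, the receptor for bacterial lipopolysaccharide, fell by 0.81 (SE 0.128), and 1 other fall, Mavs, was lost without either IFN-γ or the first unstimulated shDRG2 library, which left 1. Among PARP and Schlafen genes 15 of 18 rose, with Parp14 from 7.62 and 6.59 to 601 and 534 CPM (6.31, SE 0.137), while Parp1, the DNA repair enzyme, fell from 283 and 274 to 206 and 209 CPM (-0.43, SE 0.0808).

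Several effector groups outside presentation also moved. Of 27 cell death genes 17 rose and 2 fell (median 0.64; 1 fell without the second IFN-γ or the first unstimulated shDRG2 library). The rises held Gsdmd, the pore former of pyroptosis, from 1.24 and 1.01 to 48.9 and 45.7 CPM (5.38, SE 0.158) and the death ligand Tnfsf10 from at most 0.0933 CPM to 18.9 and 17.9 CPM (7.98, SE 0.425). Casp12 had 0 counts without and 25.02 and 19.12 CPM with IFN-γ, at least 420.8-fold higher. In the complement list 7 of 14 rose and 1 fell. C4b went from 0.218 and 0.0775 to 207 and 204 CPM (10.34, SE 0.188) and C1ra from 10.1 and 8.84 to 162 and 153 CPM (4.05, SE 0.113), whereas Masp1, a protease of the lectin pathway, fell by 2.45 (SE 0.260). The exons of C2 and Cfb overlap Gm20547 on the same strand over 42.8% and 79.5% of their bases, so their counts are uncertain.

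Of 17 metabolic effector enzymes 11 rose and 3 fell (median 1.03). Xdh, which makes uric acid, went from 0.280 and 0.0775 to 36.1 and 23.4 CPM (7.26, SE 0.366), Nampt, which makes an NAD precursor, from 118 and 115 to 577 and 530 CPM (2.25, SE 0.0774), and the tryptophan tRNA synthetase Wars from 120 and 98.7 to 382 and 334 CPM (1.71, SE 0.131). Ido1, which degrades tryptophan, stayed low in level at 1.30 and 1.31 CPM with IFN-γ although it rose by 4.16 (SE 0.590). Ass1, the arginine-making enzyme, fell from 90.5 and 93.8 to 34.6 and 39.3 CPM (-1.32, SE 0.121). Of 6 tested apolipoprotein L genes 5 rose (median 7.24, or 7.13 with Apol7a at its bound), with Apol6 from 0.218 and 0.0775 to 526 and 478 CPM (11.62, SE 0.198). Targets and subunits of NF-κB moved little, with 5 of 18 rising, 1 falling and a median of 0.18. The rises numbered 3 without the second IFN-γ or the second unstimulated shDRG2 library, and the fall, Nfkb2, was lost when any 1 of the 4 shDRG2 libraries was left out.

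The 12 largest rises among genes averaging 5 CPM or more, predicted names left out, were Mpeg1, Gvin1, Slamf8, Ly6a, Gbp10, Iigp1, Ciita, Casp12, H2-Eb1, Cd74, H2-Ab1 and Tgtp1. Their order rests on fitted values, which for genes with 0 counts depend on the small count added by the model. At their lower bounds Mpeg1, Gvin1, Slamf8, Ly6a and Casp12 would rank below genes outside the 12, such as Irf8 (11.90) and Gbp4 (11.82). Mpeg1, a pore-forming protein of macrophages, had 0 counts without and 69.8 and 46.9 CPM with IFN-γ, at least 1106-fold higher. Slamf8 had 0 counts without and 36.5 and 33.0 CPM with it, at least 667.8-fold higher, and Ly6a, the Sca-1 surface antigen, 46.5 and 22.7 CPM, at least 645.4-fold higher. In all, 70 called genes had 0 counts in both unstimulated shDRG2 libraries. The clone-named gene RP23-100J23.5 was among the 5 of these with the highest level, at 28.4 and 32.7 CPM, at least 593.8-fold higher. Bounds and intervals cover counting error only.

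Some of the strongly rising genes lay in groups along the genome (GENCODE M21, GRCm38). Of the 460 rises of at least 4-fold with a position, 100 fell into 16 groups of 4 or more genes with gaps of at most 200 kb; the others did not, and the same share over all genes tested was not computed. On chromosome 17 between 33915899 and 34316674, in the MHC, 12 of 27 tested genes rose at least 4-fold, from Tapbp to H2-Eb1. On chromosome 11 between 48861968 and 49135387 all 10 tested genes did, among them Irgm1, Tgtp1 and Ifi47. On chromosome 5 between 105014150 and 105406970 all 7 did, with 6 Gbp genes, and on chromosome 3 between 142493978 and 142638008 all 4 did, Gbp2, Gbp3, Gbp5 and Gbp7. On chromosome 1 between 84963669 and 85709998 13 of 14 did, among them Sp100, Sp110 and Sp140. Members of such groups are often copies of each other, and reads could be split between copies.

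The falls were shallower and led by genes of diverse function. The 12 largest falls under the same rule were Cck, Abca12, Car6, Spsb4, Etv5, Mgll, Nr4a1, Ttn, Tm4sf1, Gpr37, Megf6 and Cntfr. Cck, a peptide hormone, went from 33.2 and 41.5 to 1.13 and 1.26 CPM (-4.95, SE 0.313). Abca12, a lipid transporter, was an abundant gene at 512 and 408 CPM and ended at 25.5 and 22.1 CPM (-4.27, SE 0.151). Mgll, which splits monoacylglycerol, went from 319 and 270 to 45.2 and 43.8 CPM (-2.73, SE 0.161). The secreted carbonic anhydrase Car6 (-3.44, SE 0.257), the ubiquitin ligase adaptor Spsb4 (-3.38, SE 0.210) and the cytokine receptor subunit Cntfr (-2.26, SE 0.108) followed. In each of these 6 genes both libraries with IFN-γ lay below both without, which their choice as the largest falls all but fixed in advance.

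Output genes of the ERK pathway fell: 10 of 16 tested fell and 1 rose, with a median of -0.84. The ETS factors Etv5, Etv4 and Etv1 fell by 2.81, 4.09 and 1.61, and the feedback inhibitors Spry4, Spry1 and Spred2 by 4.07, 2.51 and 1.81. The largest of these falls, Etv4 and Spry4, ended near the floor, with SEs of 0.669 and 0.565. Their mean levels were 1.58 and 1.07 CPM without and 0.085 and 0.064 CPM with IFN-γ. Etv5 went from 12.07 and 11.97 to 1.67 and 1.75 CPM, and Spred2 from 41.5 and 37.1 to 11.9 and 10.6 CPM. Ccnd1, the G1 cyclin, went from 259 and 258 to 141 and 145 CPM (-0.85, SE 0.0873). Dusp6, a phosphatase that switches ERK off, was the exception and rose from 106 and 92.4 to 244 and 207 CPM (1.18, SE 0.0992). Immediate-early genes split, with 7 of 17 rising and 5 falling. Atf3 (3.20, SE 0.217), Zfp36 (2.00, SE 0.142), Fosl2 (1.46, SE 0.163) and Jun (1.28, SE 0.116) rose, while Egr1 (-3.33, SE 0.440) and Nr4a1 (-2.70, SE 0.194) fell.

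Many genes of the pigment cell fell, by smaller amounts. Of 14 melanocyte lineage factors 7 fell and none rose (median -0.41), and of 26 pigmentation genes 15 fell, 2 rose (Hps1 and Hps6) and 9 were not called (median -0.44). Without the first IFN-γ shDRG2 library 0 pigmentation genes rose, and 1 did without the second unstimulated one. Mitf, the master regulator of the lineage, went from 432 and 460 to 266 and 311 CPM (-0.63, SE 0.0946), and its target Cdk2 from 350 and 326 to 150 and 173 CPM (-1.07, SE 0.0865). Pmel, which forms the fibrils of the melanosome, went from 4777 and 4204 to 2410 and 2441 CPM (-0.89, SE 0.0913). The rate-limiting enzyme Tyr went from 308 and 267 to 128 and 134 CPM (-1.14, SE 0.0900). The transporter Slc45a2 (-1.59, SE 0.114), the channel Trpm1 (-1.96, SE 0.108) and Oca2 (-2.93, SE 0.291) fell further. Tyrp1 (-0.07) and Gpnmb (0.14), both among the abundant genes, did not pass the test. Sox10, a lineage factor, fell by 0.28 (adjusted p = 0.049 by the edgeR test), but lost the call without the second IFN-γ shDRG2 library (-0.18, adjusted p = 0.313), without the first unstimulated one (-0.20, adjusted p = 0.257), with only the 4 shDRG2 libraries in the fit (adjusted p = 0.0597), with RLE scaling (0.0561) and without the first IFN-γ, the first unstimulated or the second unstimulated pLKO library (0.0503, 0.0752 and 0.0682).

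Many cell cycle genes fell by small amounts, and how many depended on the libraries included. Of 40 S phase genes 25 fell and 1 rose (median -0.39), and of 37 genes of G2 and mitosis 26 fell and none rose (median -0.42). Without the first IFN-γ shDRG2 library 10 S phase genes and 9 genes of G2 and mitosis fell, and without the first unstimulated one 14 of the latter did. The 1 rise in S phase, Rfc3, was lost without the second IFN-γ or the second unstimulated library. Mki67, the proliferation marker, went from 705 and 943 to 310 and 402 CPM (-1.21, SE 0.159). The nucleotide enzyme Tk1 (-0.88, SE 0.122), the factor E2f2 (-0.89, SE 0.133), the mitotic phosphatase Cdc25b (-0.85, SE 0.132) and the survival factor Birc5 (-0.74, SE 0.125) fell, whereas Top2a (-0.04) and Mcm6 (-0.14) did not pass the test. In bulk RNA, fewer cells in a state and less RNA per cell cannot be told apart. Of 26 p53 targets 12 fell and 4 rose (median -0.14), with 1 rise without the first IFN-γ shDRG2 library and 2 without the first or the second unstimulated one. The falls held Zmat3 from 190 and 183 to 74.1 and 71.8 CPM (-1.36, SE 0.0886) and Ccng1 (-1.06, SE 0.0984), while Gadd45b rose by 2.56 (SE 0.161).

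Of 33 genes of matrix, integrins and adhesion 17 fell and 6 rose (median -0.31). Col1a2 went from 18.9 and 17.1 to 3.265 and 4.595 CPM (-2.19, SE 0.175), Itgb3, a subunit of the vitronectin receptor, from 22.39 and 20.03 to 5.197 and 5.58 CPM (-1.98, SE 0.158), and the adhesion protein Alcam fell by 1.19 (SE 0.0882). Its partner subunit Itgav rose by 0.40 (SE 0.0729). Of 15 genes of dedifferentiation and invasion 4 rose and 4 fell, with 2 rises without the first unstimulated shDRG2 library. Fn1, fibronectin, rose from 135 and 141 to 728 and 484 CPM (2.13, SE 0.194) and Axl by 1.00 (SE 0.172), while Sparc fell by 1.05 (SE 0.202) and Ctgf by 2.16 (SE 0.327).

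Housekeeping and stress lists stayed near the median of all genes. For ribosome biogenesis and Myc targets 3 of 29 rose and 1 fell (median 0.00), for hypoxia and glycolysis 3 of 34 rose and 4 fell (-0.05), for the unfolded protein and integrated stress response 7 of 33 rose and 7 fell (-0.04), and for cholesterol synthesis and uptake 7 of 28 rose and 1 fell (0.08). In the lysosome list 12 of 33 rose and 5 fell (0.10). Some counts were higher under other settings. With a replicate block, ribosome biogenesis had 7 rises and 5 falls, and without the filter hypoxia had 5 rises and 8 falls. Several of the small counts as first fitted also moved when 1 shDRG2 library was left out. Without the first IFN-γ library, rises numbered 1 for hypoxia, 2 for stress, 2 for cholesterol and 7 for the lysosome, and falls 2, 4, 1 and 2, with 0 falls for ribosome biogenesis. Without the second IFN-γ library there were 4 rises for cholesterol, and falls numbered 1 for hypoxia, 4 for stress and 2 for the lysosome. Without the first unstimulated library, ribosome biogenesis had 1 rise, and falls numbered 2 for hypoxia, 2 for stress and 1 for the lysosome. Without the second unstimulated library, rises numbered 2 for stress, 2 for cholesterol and 7 for the lysosome. Leaving out either pLKO library with IFN-γ gave 3 falls for ribosome biogenesis. In the lysosome list progranulin (Grn) went from 311 and 275 to 645 and 554 CPM (1.03, SE 0.0975). Within the stress list the integrated stress genes Ddit3 (0.83, SE 0.133) and Phgdh (0.46, SE 0.0916) rose and the endoplasmic reticulum genes Xbp1 (-0.45, SE 0.0833) and Dnajc3 (-0.45, SE 0.0692) fell. Of 13 mitochondrially encoded mRNAs 6 fell and none rose (median -0.47). The falls numbered 11 without the filter and 10 with a replicate block. As first fitted they were cytochrome b and 5 genes of complex I. Cytochrome b (mt-Cytb) went from 10080 and 9684 to 6161 and 6074 CPM (-0.69, SE 0.0964). The other 5, the complex I genes mt-Nd1, mt-Nd2, mt-Nd4, mt-Nd4l and mt-Nd5, lost the call without the second IFN-γ shDRG2 library (-0.53, -0.35, -0.49, -0.43 and -0.47, with adjusted p from 0.053 to 0.165). Without the first unstimulated library mt-Nd1 (-0.45), mt-Nd2 (-0.35) and mt-Nd4 (-0.45) lost it. Mitochondrial genes took 5.19% and 4.96% of the counts without and 3.85% and 3.78% with IFN-γ.

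The question whether the depleted line responded differently was read from the pLKO line, whose response shares no library with it. In pLKO cells 2082 genes rose (15.4% of those tested) and 1714 fell (12.7%). Of the rises in shDRG2 cells 1766 also rose in pLKO cells, which is 80.9% of the shDRG2 rises and 84.8% of the pLKO rises. Of the falls 1485 were shared, 72.4% of the shDRG2 and 86.6% of the pLKO falls. A gene past the threshold in 1 line only is not shown to differ between the lines, and the difference of the responses was tested directly. It was called higher in shDRG2 cells for 1 gene (0.00741%) and lower for 0 genes (0%) by the edgeR test, with 113 and 208 genes at an unadjusted p under 0.05 and 2 and 5 genes called by DESeq2.

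For Cd274 the response was 4.89 in shDRG2 and 4.69 in pLKO cells, where the libraries stood at 8.86 and 11.2 without and 248 and 270 CPM with IFN-γ. The difference was 0.19, with a 95% interval from -0.15 to 0.53. For Irf1 the responses were 5.87 and 5.66. The list medians ran alongside in the same way, with 5.05 and 5.49 for class I genes, 10.86 and 11.68 for the GTPases, 3.85 and 3.41 for antiviral effectors and -0.84 and -0.72 for ERK output. The GTPase medians include fitted values of genes with 0 or few counts without IFN-γ. For that list the median of the per-gene differences, shDRG2 minus pLKO, was 0.13, opposite in direction to its 2 medians. For pigmentation genes the medians were -0.44 and -0.24, and for melanocyte factors -0.41 and -0.19. Dct, for example, changed by -0.69 in shDRG2 and -0.28 in pLKO cells, with a difference of -0.41 (SE 0.122) that did not pass the test. With 2 libraries per group, a difference that was not called does not show that the lines respond alike.

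The 1 gene called for the difference was the predicted gene Gm8226, named here after its values were seen. It was at 5.29 and 4.76 CPM in unstimulated pLKO cells and had 0 counts in both pLKO libraries with IFN-γ, at least 100.1-fold lower. In shDRG2 cells it was at 11.4 and 12.2 CPM without and 11.4 and 7.58 CPM with IFN-γ, a change that did not pass the test (-0.32, SE 0.193). The states overlapped in shDRG2 cells and were separate in pLKO cells.

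**Figure D5:**
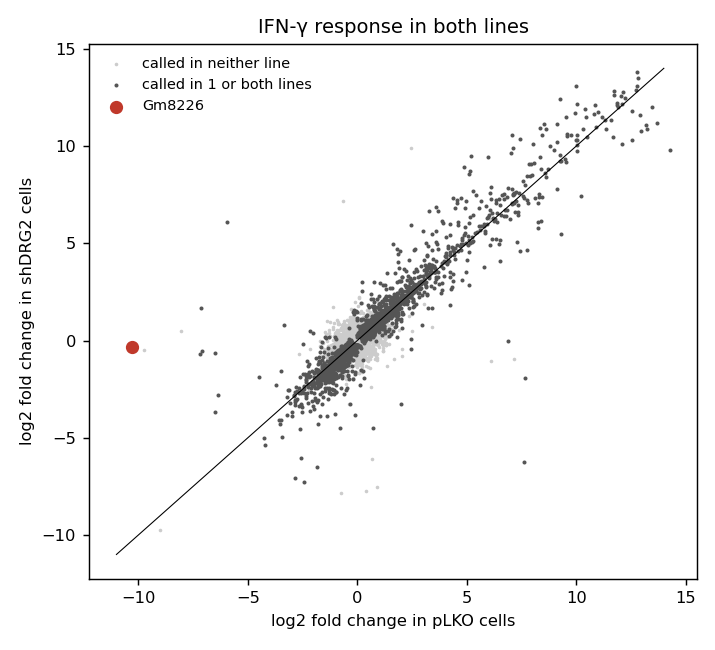
Change after IFN-γ in shDRG2 cells (log2 fold change, vertical axis) against that in pLKO cells (horizontal axis) for the 13500 genes tested, with the line of equal change. Dark points were called in at least 1 line; Gm8226, in red at the left edge, is the 1 gene called for the difference, and far points off the line include genes with 0 counts in a group, whose fitted values depend on the small count added by the model.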

How the data were processed

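Gene expression was measured in 8 B16F10 libraries (totals of 25422758 to 36654519 counts), and the IFN-γ response was read from the 4 shDRG2 libraries. The table deposited by the authors holds estimated counts of reads per gene without normalisation. Per the submitters' processing notes, STAR, Salmon 1.5.2 and the mm10 genome were used; the annotation is not given in the sources used here. Strand handling is likewise not given, so counts of overlapping genes are uncertain. The 27 entries whose names had become dates (0.204% to 0.212% of counts per library) were left out. Counts were rounded and fitted in edgeR 4.0.16 (R 4.3.3) with filterByExpr, TMM and the two-sided quasi-likelihood F test. The fit held all 8 libraries, with 1 coefficient per group and 4 residual degrees of freedom. Adjustment was over all genes tested, at 0.05. The code was also run on simulated counts without a shared replicate effect or rises from 0 counts, so that run does not cover those features. DESeq2 1.42.0, other scalings, no filter, a replicate block, fewer libraries and leaving out each library were alternatives. Positions came from GENCODE M21 and promoters from RefSeq. The comparison and the gene lists were chosen with earlier results of these data known. Named genes were Drg2 and Cd274, the 12 largest called rises and falls with a mean of at least 5 CPM and no predicted name, in each list up to 6 called genes per direction plus the 3 most abundant, and the 5 highest genes that rose from 0 counts. Replicates of a group differed 11.9 to 16.0 times more, as variance, than counting error alone gives. List genes not found under their names were not analysed here, and 2 genes of the lists are not reported by name.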

Additional observations from a re-analysis of the deposited data

Results flagged for a closer look

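The response of the predicted gene Gm8226 differed between the lines by the test of the difference itself, with a log2 difference of 9.97 (shDRG2 minus pLKO, adjusted p = 0.00478 by the edgeR quasi-likelihood test). The gene had 325 counts over the 2 unstimulated pLKO libraries and 0 over the 2 with IFN-γ, and because of the 0 the fitted size depends on the small count added by the model. In shDRG2 cells both states held the gene.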

How the results depend on the processing

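For the shDRG2 response, no gene called both as first fitted and in an alternative changed sign, over the 15 alternatives run. Genes that lost the call were checked for sign only where named, and none of those reversed. The 4233 calls (2182 higher, 2051 lower) became 4233 with RLE scaling (2197, 2036), 4366 with upper-quartile scaling (1950, 2416), 4272 with library size only (2005, 2267), so that falls outnumbered rises under these last scalings; they were 4670 without the filter, 4105 with only the shDRG2 libraries and 3831 with DESeq2. Leaving out 1 library at a time gave 2720 to 4297 calls, with 1443 to 2259 higher and 1277 to 2114 lower, the lowest each time without the first shDRG2 library with IFN-γ. For pLKO cells (3796 calls) it gave 2482 to 3749, the lowest without the first unstimulated pLKO library, and 2495 without the second pLKO library with IFN-γ. A library left alone in its group was assumed to vary like the others. For the difference between the responses (1 call), leaving out a library gave 1 to 2 calls, with 2 without the first unstimulated pLKO library. That difference had 58 calls without the filter (21 higher, 37 lower) and 7 with DESeq2, and the cause was not tested. With a replicate block there were 5634 calls in shDRG2 cells, 5166 in pLKO cells and 2 in the difference. The labels do not say what a replicate number shares. The correlations of replicate deviations over the 6 pairs of groups were all positive, 0.0815 to 0.346, with 5 over 0.1, and the third principal component (4.31% of the variance) separated the numbers in all 4 groups. These are hints from the data of a shared effect, not part of the design; since 1 correlation stayed under 0.1, the block was kept as an alternative. Of 298 named genes called, 234 kept the call in every alternative and 64 lost it in at least 1; of 44 not called, 6 gained it. At 0 to 3 counts in a group, depth allowed only a bound or a counting interval.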

Other observations

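Some gene families outside the lists, chosen after their values were seen, also moved in shDRG2 cells. Of 42 tested tripartite motif genes, many of them antiviral ubiquitin ligases, 14 rose and 6 fell with a median log2 change of 0.04. The largest rises, Trim30d (5.52, SE 0.284), Trim5 (5.52, SE 0.285), Trim12c (5.18, SE 0.233), Trim12a (4.93, SE 0.155) and Trim34a (4.78, SE 0.251), lie beside each other on chromosome 7 between 104244457 and 104507849, where 6 of 7 tested genes rose at least 4-fold. These are close copies, so reads could be split between them. Trim71, a regulator of stem cell mRNAs, fell from 8.83 and 10.6 to 1.90 and 2.24 CPM (-2.22, SE 0.213). Of 14 serpins, inhibitors of proteases, 8 rose and 1 fell (median 0.96). Serpinb9, which inhibits granzyme B, rose from 5.44 and 3.76 to 50.4 and 43.2 CPM (3.33, SE 0.158). Of 14 interleukin receptor genes 8 rose and 2 fell (median 0.75), with Il12rb1, a receptor chain for interleukin 12, from 0 counts to 6.46 and 5.77 CPM, at least 117.5-fold higher.

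Dual-specificity phosphatases, which act on MAP kinases, fell more often than they rose, with 8 of 16 falling and 3 rising (median -0.32). Dusp8 (-1.16, SE 0.197) and Dusp7 (-0.60, SE 0.0818) fell, while Dusp28 (1.46, SE 0.115) and Dusp10 (1.14, SE 0.130) rose along with Dusp6. Of 21 genes of the proteasome ATPase ring and lid, 9 rose and none fell (median 0.24), Psmc2 by 0.37 (SE 0.0731) and Psmd14 by 0.37 (SE 0.0719). Prph, the intermediate filament peripherin, and Tubb3, a beta-tubulin, were also picked after their values were seen. Prph went from 0.435 and 0.426 to 698 and 647 CPM (10.59, SE 0.152) and by level per kilobase from rank 11454 to rank 89 of 12787 genes. Tubb3 went from 53.24 and 53.21 to 320 and 292 CPM (2.52, SE 0.111). In pLKO cells the changes of Prph and Tubb3 were 10.03 and 2.24. Of the rises of at least 4-fold, 35 were among the 300 genes with the highest level per kilobase with IFN-γ, and 1 of these was there without it.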
